A study of Mus musculus with 3 samples.

Results

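Mecom, Hlf, Hopx, Prdm16, Nkx2-3, Zfp521 and Msi2 are 7 genes that regulate transcription or RNA in blood stem cells. They were chosen by name from the 32285 genes of the count tables, to follow stem-cell genes into committed blood lineages under a leukemia fusion. All 7 had UMIs in every library, as did 18221 of all genes; a UMI (unique molecular identifier) marks 1 captured RNA molecule.

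RNA and 10 surface antibody tags were read together (CITE-seq) in newborn mouse liver cells at P0, sorted as Lin-Kit+, that is, without mature lineage antigens and with the receptor KIT. There were 3 libraries, 1 per group: mice with the fusion MLL::ENL (written MLL-ENL here) and Skida1 deleted, mice with MLL-ENL alone, and Control mice. MLL-ENL joins the start of the chromatin regulator MLL to ENL, a subunit of elongation complexes, and both fusion groups carry it, while the Control mice are named by the labels only as Control or WT. The sources used here do not say how the fusion is expressed, which part of Skida1 is deleted or how many pups entered each library, so no difference below has a replicate check and no p-value was computed.

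The libraries kept 9394 Skida1-deleted, 10154 MLL-ENL and 5379 Control cells, with median depths of 17285.5, 14685.5 and 28003 UMIs per cell in that order. Skida1 itself had 0.501 CPM (92 UMIs) in the Skida1-deleted library, 4.75 CPM (848 UMIs) in MLL-ENL and 0.230 CPM (36 UMIs) in Control, where CPM is UMIs per 1000000 gene UMIs of the cells summed. Kit, the gene of the sorted receptor, stood at 228, 199 and 185 CPM in the same order, and Cd3e and Ly6g, genes of mature T cells and neutrophils, had 0 UMIs in each library. Xist had 2.09, 1038 and 642 CPM and the Y-linked gene Ddx3y 10509, 0 and 0 UMIs, so sex and Skida1 deletion cannot be told apart in these libraries. The libraries shared 13 to 21 cell barcodes per pair.

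Blood stem cells keep a small set of transcription factors on and lose them as daughters commit to a lineage. MECOM (EVI1) and PRDM16 are related zinc finger proteins of the PRDM family that keep stem cells in being, HLF is a PAR bZIP factor found in stem cells from the embryo onwards, and HOPX is a small homeodomain protein that does not bind DNA itself. NKX2-3 is a homeobox factor, ZFP521 a zinc finger cofactor that holds back the B-cell factor EBF1, and MSI2 an RNA-binding protein that supports stem cells and myeloid leukemia. Mecom is expressed in a part of the leukemias with an MLL rearrangement.

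The deposited tables name the genes by symbol and Ensembl identifier, and their places are those of the assembly GRCm38.p6. Mecom (ENSMUSG00000027684) lies at chr3:29951296-30509759, Hlf (ENSMUSG00000003949) at chr11:90336535-90390917 and Hopx (ENSMUSG00000059325) at chr5:77086986-77115123. Prdm16 (ENSMUSG00000039410) lies at chr4:154316122-154637360, Nkx2-3 (ENSMUSG00000044220) at chr19:43612325-43615892 and Msi2 (ENSMUSG00000069769) at chr11:88339382-88718306. RefSeq promoters of that build were at hand for 6 of the 7 genes, with 10 start sites among them. The 250 bases before the start are given for the annotated starts of Mecom, Hlf and Hopx, the 3 genes the comparisons turn on, written 5′ to 3′ on the gene's own strand, which is the minus strand for all 3. Capitals mark a match to the MEIS letters defined after the sequences.
Mecom distant start, chr3:30509760-30510009, minus strand: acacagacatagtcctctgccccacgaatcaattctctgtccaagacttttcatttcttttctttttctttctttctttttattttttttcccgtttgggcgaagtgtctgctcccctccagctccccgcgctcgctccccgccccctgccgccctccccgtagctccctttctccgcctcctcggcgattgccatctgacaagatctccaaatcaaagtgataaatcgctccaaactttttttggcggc
Mecom inner start, chr3:30013205-30013454, minus strand: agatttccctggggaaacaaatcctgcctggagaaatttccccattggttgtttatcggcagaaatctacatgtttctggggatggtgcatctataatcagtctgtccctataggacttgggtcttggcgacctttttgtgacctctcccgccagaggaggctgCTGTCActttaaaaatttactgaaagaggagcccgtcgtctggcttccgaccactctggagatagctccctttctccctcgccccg
Hlf, chr11:90390918-90391167, minus strand: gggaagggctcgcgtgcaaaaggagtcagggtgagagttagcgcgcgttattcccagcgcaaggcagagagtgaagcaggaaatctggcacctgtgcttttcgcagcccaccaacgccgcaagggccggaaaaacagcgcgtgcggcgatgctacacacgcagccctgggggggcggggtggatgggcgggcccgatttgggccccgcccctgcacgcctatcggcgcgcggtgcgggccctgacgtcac
Hopx distant start, chr5:77115124-77115373, minus strand: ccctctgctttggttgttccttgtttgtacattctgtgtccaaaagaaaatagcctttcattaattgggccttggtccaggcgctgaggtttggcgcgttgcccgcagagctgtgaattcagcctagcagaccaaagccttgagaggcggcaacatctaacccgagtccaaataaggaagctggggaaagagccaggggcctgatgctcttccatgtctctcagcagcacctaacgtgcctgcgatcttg
Hopx inner start, chr5:77095268-77095517, minus strand: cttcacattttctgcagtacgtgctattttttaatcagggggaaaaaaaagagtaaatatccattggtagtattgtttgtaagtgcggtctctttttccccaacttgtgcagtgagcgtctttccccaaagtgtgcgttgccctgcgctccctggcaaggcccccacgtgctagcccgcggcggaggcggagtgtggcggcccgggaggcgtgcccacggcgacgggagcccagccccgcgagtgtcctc

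Mecom and Hopx each have a distant and an inner annotated start, and the counts, made at the 3′ end of transcripts, do not tell which start was used. The distant and inner Mecom promoters held 14 and 8 CG pairs, the Hlf promoter 26, and the distant and inner Hopx promoters 8 and 18, against a median of 6 over 32851 mouse promoters of the same length. All 10 promoters were searched on both strands for short letters of factor families. The HOXA9 type, TGATTTAT or TGATTTAC (the forms differ in the last base), occurs in 1.33% of all promoters and was in none of the 10. The RUNX letters TGTGGT occur in 14.0%, the GATA letters GATAAG in 6.55% and the ETS letters CCGGAAG in 6.91% of all promoters, and none of the 10 held them. The MEIS letters TGACAG occur in 15.9% of all promoters and were found 1 time, in the inner Mecom promoter, on the opposite strand and 86 bases before the start. A match describes letters in this window and nothing about binding, and with a single match no motifs overlapped.

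Cells were clustered with the 7 genes left out, and clusters were named "like" a class from marker lists that hold none of them. The hematopoietic stem and progenitor class (HSPC-like) held 2330 Skida1-deleted, 1714 MLL-ENL and 1195 Control cells. The granulocyte progenitor-like class held 334, 359 and 184 cells, the megakaryocyte-like class 648, 363 and 129, the erythroid-like class 4036, 5772 and 2947, and the basophil-mast-like class 320, 287 and 168 cells in the same order of libraries. A further 1574, 1500 and 501 cells high in Car1 and Ass1 reached no class. Control and fusion cells often fell into different clusters of 1 class: 98.6% of Control erythroid-like cells lay in clusters with under 20 cells of either fusion library, as did 34.6% of Control HSPC-like cells. The class names rest on markers read here, and which cells a class gathers and how much RNA each holds cannot be told apart from a class sum.

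Levels are CPM of the summed class, and brackets give 95% intervals (exact Poisson for a CPM, exact conditional binomial for a fold) that cover counting error only. A gene was measured in a comparison with at least 5 CPM in either library, and was called higher or lower there at 1.5-fold or more. The median gene shifted by -0.14 to -0.24 (log2) in the Skida1-deleted library over Control, by -0.02 to -0.06 in that library over MLL-ENL and by -0.10 to -0.17 for MLL-ENL over Control. The 3 comparisons share libraries, and their values stand side by side without being read as support for each other.

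Mecom was higher in both fusion libraries than in Control in each of the 5 classes, although in erythroid-like cells it lay under the level that counts as measured. In HSPC-like cells it reached 169 CPM [163–174] in the Skida1-deleted library (3944 UMIs), 124 CPM [119–129] in MLL-ENL (2404 UMIs) and 37.4 CPM [34.8–40.2] in Control (744 UMIs). A Mecom UMI was found in 67.0%, 58.6% and 30.2% of these cells in the same order, and in 40.5%, 33.8% and 12.1% after each cell was thinned to 3000 UMIs, which left out 21, 2 and 4 shallower cells. The order of the libraries was thus the same with depth made equal. MLL-ENL stood 3.31-fold [3.05–3.60] above Control, and the Skida1-deleted library 1.36-fold [1.29–1.43] above MLL-ENL, a ratio under the threshold for a call; over Control the Skida1-deleted library was 4.51-fold [4.16–4.88] higher.

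Megakaryocyte-like cells kept the most Mecom outside the HSPC-like class. They held 79.8 CPM [73.6–86.3] in the Skida1-deleted library, 52.5 CPM [46.4–59.1] in MLL-ENL and 6.69 CPM [3.9–10.7] in Control, from 617, 270 and 17 UMIs. MLL-ENL was 7.84-fold [4.81–13.7] above Control and the Skida1-deleted library 1.52-fold [1.32–1.76] above MLL-ENL, so both comparisons gave a call in this lineage. The second call ended at 1.44-fold with cells classed by their nearest Control cells and at 1.49-fold in the tercile with most own-lineage markers. Thinned shares of cells with a Mecom UMI were 20.4%, 15.2% and 2.36% in the same order.

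In basophil-mast-like cells Mecom stood at 27.0 CPM [22.2–32.5] in the Skida1-deleted library (110 UMIs), 9.29 CPM [6.47–12.9] in MLL-ENL (35 UMIs) and 0.372 CPM [0.00942–2.07] in Control (1 UMI). The Skida1-deleted library was 2.91-fold [1.97–4.38] above MLL-ENL, and MLL-ENL 25.0-fold [4.20–1010] above Control, where the single Control UMI leaves the upper side nearly unbounded. In the 5 classes 3 measured ratios between the fusion libraries passed 1.5-fold for Mecom, and this was the largest of them. In granulocyte progenitor-like cells it stood at 13.4 CPM [10.4–17.0], 7.97 CPM [5.61–10.98] and 0.626 CPM [0.129–1.83] in the same order, from 67, 37 and 3 UMIs. That made 12.7-fold [4.03–64.6] for MLL-ENL over Control and 1.68-fold [1.11–2.58] for the Skida1-deleted library over MLL-ENL. The last ratio was not stable: it was 0.756 after thinning to 3000 UMIs (7 and 9 UMIs), 0.872 at a clustering resolution of 2.0 and 3.03 without the low-depth clusters. Over Control, MLL-ENL ran down to 2.61-fold in the tercile with most own-lineage markers, from 3 UMIs in each library.

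Erythroid-like cells held little Mecom, under the 5 CPM that a measured gene needs. There were 389 UMIs in the Skida1-deleted library (3.39 CPM), 309 in MLL-ENL (2.71 CPM) and 7 in Control (0.0627 CPM). MLL-ENL over Control was 43.2-fold [20.7–108] and the Skida1-deleted library over MLL-ENL 1.25-fold [1.07–1.46], and this second ratio was 0.481 after thinning and 3.04 without the low-depth clusters. The first was 16.7-fold without these clusters and 4.10-fold without doublet removal. A Mecom UMI was found in 7.66%, 4.97% and 0.238% of erythroid-like cells in the Skida1-deleted, MLL-ENL and Control libraries, at median depths of 28436, 22667.5 and 36800 UMIs, against depths of 8817, 9965.5 and 15265 UMIs in HSPC-like cells. After thinning, which left out 251, 794 and 32 shallower cells, these shares were 0.978%, 1.97% and 0%. The share in HSPC-like cells was thus far above that in erythroid-like cells in each library, although erythroid-like cells were deeper. The Car1- and Ass1-high cells without a class lay between erythroid-like and HSPC-like cells in Mecom level, with 25.2, 10.2 and 1.2 CPM in the Skida1-deleted, MLL-ENL and Control libraries. There the Skida1-deleted library was 2.48-fold [2.16–2.84] above MLL-ENL in Mecom and 1.75-fold [1.41–2.18] above it in Hlf, which had 8.19, 4.67 and 4.84 CPM.

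**Figure D1:**
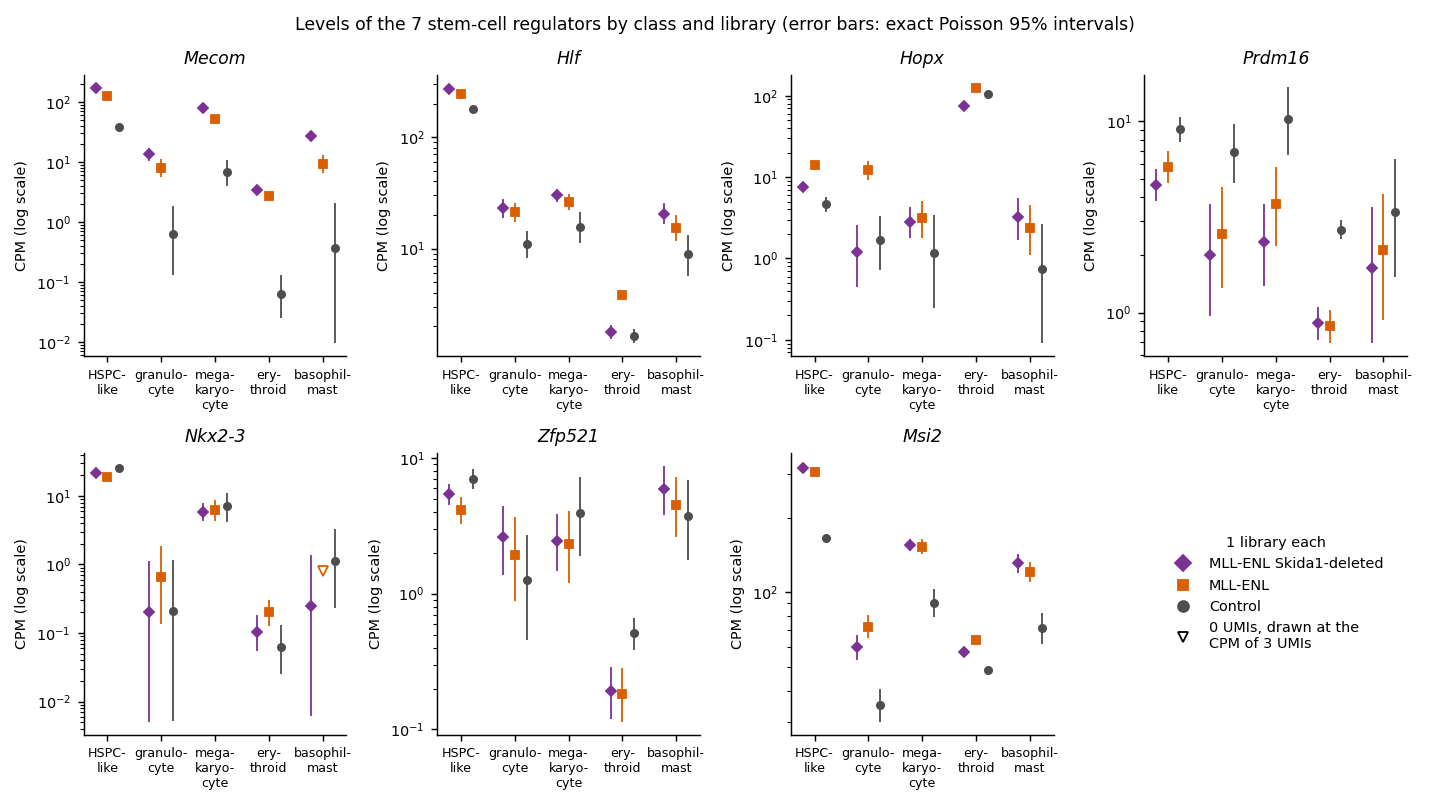
CPM (log axis) of each of the 7 genes in 5 classes, with Skida1-deleted, MLL-ENL and Control libraries left to right in each class and bars for exact Poisson 95% intervals. Mecom stands above Control in the fusion libraries in every class, from 169 and 124 against 37.4 CPM in HSPC-like cells to 3.39 and 2.71 against 0.0627 CPM in erythroid-like cells; a gene with 0 UMIs is drawn at the CPM of 3 UMIs.

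Hlf was present in most HSPC-like cells of each library. In HSPC-like cells it had 274 CPM in the Skida1-deleted library, 246 CPM in MLL-ENL and 179 CPM in Control, with a UMI in 79.0%, 75.4% and 70.4% of cells (52.9%, 48.9% and 39.6% thinned). Erythroid-like cells, which were deeper, held a Hlf UMI in 4.24%, 6.999% and 4.82% of cells in the same order. MLL-ENL over Control was 1.38-fold [1.32–1.44], under the call, and the Skida1-deleted library over MLL-ENL 1.11-fold [1.07–1.15]. Most Control HSPC-like cells thus already held Hlf RNA.

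In the committed classes Hlf was low in all libraries, and called higher in MLL-ENL over Control in 3 of them. Granulocyte progenitor-like cells had 23.0, 21.1 and 11.1 CPM in the Skida1-deleted, MLL-ENL and Control libraries, a ratio of 1.91-fold [1.35–2.72] for MLL-ENL over Control. Megakaryocyte-like cells had 30.1, 26.2 and 15.7 CPM, with 1.67-fold [1.16–2.43]. Basophil-mast-like cells had 20.6, 15.4 and 8.93 CPM, with 1.72-fold [1.05–2.90]. The intervals of these 3 ratios lie above 1, though the Control classes held 53, 40 and 24 Hlf UMIs and so leave them wide. Each call ended under another setting: the ratio was 1.13 in granulocyte progenitor-like cells and turned to 0.802 in megakaryocyte-like cells at a clustering resolution of 0.5, and was 1.46 in basophil-mast-like cells classed by their nearest Control cells. Between the fusion libraries the ratios in these classes were 1.09 [0.825–1.44], 1.15 [0.925–1.43] and 1.34 [0.947–1.91], all within counting error of 1.

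Hopx followed another pattern: it stood highest in erythroid-like cells of each library, and it was lower in the Skida1-deleted library than in MLL-ENL in HSPC-like, granulocyte progenitor-like and erythroid-like cells, the 3 classes where it was measured. In HSPC-like cells it had 7.57 CPM [6.49–8.77] in the Skida1-deleted library, 13.9 CPM [12.3–15.7] in MLL-ENL and 4.63 CPM [3.73–5.68] in Control, from 177, 270 and 92 UMIs. MLL-ENL was 3.01-fold [2.37–3.86] above Control, and the Skida1-deleted library 1.84-fold [1.52–2.24] below MLL-ENL. Hopx was the 1 gene of the set called between the fusion libraries in HSPC-like cells. Over 16 other settings that ratio lay between 0.481 and 0.713, and the call ended at the last value, under the strict cell filter. As gauges of erythroid RNA in HSPC-like cells, Hba-a1 came to 1.84%, 1.98% and 0.797% of its erythroid-like CPM. Hba-a2 came to 3.46%, 4.08% and 1.83%, while Hbb-bt stood above its erythroid-like level in each library. The part of erythroid RNA in the Hopx of HSPC-like cells was not tested.

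Erythroid-like cells held 74.9 CPM of Hopx in the Skida1-deleted library, 125 CPM in MLL-ENL and 106 CPM in Control, with a UMI in 66.6%, 60.9% and 82.1% of cells and in 17.8%, 26.7% and 24.1% of cells thinned. Basophil-mast-like cells held a Hopx UMI in 3.75%, 3.14% and 1.19% of cells, at median depths of 11973, 12811 and 15543 UMIs. In erythroid-like cells the Skida1-deleted library was 1.66-fold [1.62–1.71] below MLL-ENL and 1.42-fold [1.38–1.46] below Control, and MLL-ENL over Control was 1.17-fold [1.14–1.20]. The Car1- and Ass1-high cells showed the same order, with 24.2, 60.1 and 46.6 CPM. Hopx was thus lower in the Skida1-deleted library than in MLL-ENL in the stem-like, the unnamed and the erythroid-like cells.

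Hopx in granulocyte progenitor-like cells had 1.20 CPM (6 UMIs) in the Skida1-deleted library, 12.3 CPM (57 UMIs) in MLL-ENL and 1.67 CPM (8 UMIs) in Control. The Skida1-deleted library was 10.2-fold [4.42–29.0] below MLL-ENL, and MLL-ENL 7.36-fold [3.49–17.9] above Control. Of the 57 MLL-ENL UMIs, 28 lay in 125 cells of low depth, and the globin gene Hba-a1 also had more CPM in this class in MLL-ENL, at 2.999, 9.907 and 1.67 CPM in the same order of libraries; its part in the result was not tested. Without the low-depth clusters Hopx had 1.06, 7.11 and 1.78 CPM, which left MLL-ENL 3.99-fold [1.78–10.1] above Control and the Skida1-deleted library 6.74 times below MLL-ENL. Over all settings the Skida1-deleted library over MLL-ENL ran between 0.0486 and 0.840 and MLL-ENL over Control between 1.96 and 15.2. The values nearest 1 came from the tercile with most own-lineage markers, where the libraries held 4, 3 and 4 Hopx UMIs and the call between the fusion libraries ended.

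Prdm16, the relative of Mecom, went the other way. HSPC-like cells had 4.66 CPM in the Skida1-deleted library, 5.78 CPM in MLL-ENL and 9.05 CPM in Control, from 109, 112 and 180 UMIs. MLL-ENL was 1.57-fold [1.23–2.002] below Control there, 2.66-fold [1.34–5.66] below in granulocyte progenitor-like cells (10, 12 and 33 UMIs) and 2.77-fold [1.48–5.30] below in megakaryocyte-like cells (18, 19 and 26 UMIs). Prdm16 was thus called lower in the fusion libraries than in Control in 3 classes, while Mecom was higher in the same classes. In the other 2 classes Prdm16 lay under the level that counts as measured. Erythroid-like cells held 101, 97 and 302 UMIs, with MLL-ENL over Control at 0.314, and between 0.246 and 0.362 under the other settings. Basophil-mast-like cells held 7, 8 and 9 UMIs, with 0.634. In HSPC-like cells the direction turned when each cell was thinned: at 3000 UMIs MLL-ENL over Control was 1.04, and the thinned shares of cells with a UMI were 1.73%, 2.45% and 2.43%. Both alternative scalings also ended the call there, at 0.686 and 0.683.

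Nkx2-3 was measured in HSPC-like and megakaryocyte-like cells and in none of the other 3 classes. HSPC-like cells had 21.3, 18.9 and 25.4 CPM in the Skida1-deleted, MLL-ENL and Control libraries, with MLL-ENL 1.34-fold [1.17–1.54] below Control and under the call; the fold passes it when a cluster led by Meg3 is left out, as given below with the clusters. Megakaryocyte-like cells had 5.82, 6.22 and 7.08 CPM. The granulocyte progenitor-like class held 1, 3 and 1 UMIs and the basophil-mast-like class 1, 0 and 3 UMIs, so no difference was detectable there at this depth. Erythroid-like cells held 12, 23 and 7 UMIs.

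Zfp521 (ENSMUSG00000024420), at chr18:13687013-13972749 of GRCm38.p6, was low in each class. HSPC-like cells had 5.43 CPM in the Skida1-deleted library, 4.13 CPM in MLL-ENL and 6.99 CPM in Control, with MLL-ENL 1.69-fold [1.28–2.26] below Control. Basophil-mast-like cells had 5.89, 4.51 and 3.72 CPM from 24, 17 and 10 UMIs, and the ratio of the Skida1-deleted library over Control, 1.58 [0.73–3.71], passed the threshold for a call with an interval that covers 1. Its direction turned to 0.890 when cells were classed by marker score. Erythroid-like cells held 22, 21 and 57 UMIs, under 1 CPM in each library.

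Msi2 was called higher in both fusion libraries than in Control in 4 of the 5 classes. HSPC-like cells had 317 CPM in the Skida1-deleted library, 306 CPM in MLL-ENL and 165 CPM in Control, and MLL-ENL was 1.85-fold [1.78–1.93] above Control. The granulocyte progenitor-like class had 59.8, 72.6 and 35.0 CPM, the megakaryocyte-like class 155, 152 and 90.5 CPM, and the basophil-mast-like class 131, 120 and 71.4 CPM. MLL-ENL over Control was 2.07-fold [1.72–2.51], 1.68-fold [1.45–1.96] and 1.68-fold [1.42–2.003] in these classes, and 1.32-fold [1.28–1.37] in erythroid-like cells (57.3, 64.2 and 48.5 CPM). The call held under every alternative setting in HSPC-like cells (1.60 to 2.12). In the 3 committed classes it ended under some settings: MLL-ENL over Control was as low as 1.35 in granulocyte progenitor-like and 1.30 in megakaryocyte-like cells (resolution 0.5 and the tercile with most own-lineage markers) and 1.36 in basophil-mast-like cells (strict cell filter). The Skida1-deleted library over Control was as low as 1.03, 1.14 and 1.34 in these classes, without doublet removal in the first and in the same tercile in the other 2. The Skida1-deleted library over MLL-ENL was 1.03-fold [0.999–1.07] in HSPC-like and 0.892-fold [0.863–0.922] in erythroid-like cells.

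Counted over the set, MLL-ENL over Control gave 3 genes higher (Mecom, Hopx and Msi2) and 2 lower (Prdm16 and Zfp521) of 7 measured in HSPC-like cells. Over all 9852 measured genes 7.99% were higher and 15.7% lower there. Granulocyte progenitor-like cells gave 4 higher (Mecom, Hlf, Hopx and Msi2) and 1 lower (Prdm16) of 5 measured, against 9.79% and 18.5% of all genes. Megakaryocyte-like cells gave 3 higher (Mecom, Hlf and Msi2) and 1 lower (Prdm16) of 5, against 8.5% and 19.2%, and basophil-mast-like cells 3 higher (the same 3 genes) and 0 lower of 3, against 8.71% and 18.6%. Erythroid-like cells gave 0 of 2 measured in either direction (5.59% and 12.5%), since Mecom lay under 5 CPM there. The set was proposed with results of these libraries known, so these counts describe it and are no independent sign of its direction.

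For the Skida1-deleted library over MLL-ENL, 1 of 7 measured genes differed in HSPC-like cells (Hopx, lower), where 3.08% of all measured genes did. In granulocyte progenitor-like cells 2 of 4 differed (Mecom higher, Hopx lower, 9.16% of all genes), in megakaryocyte-like cells 1 of 4 (Mecom higher, 6.17%), in erythroid-like cells 1 of 2 (Hopx lower, 2.07%) and in basophil-mast-like cells 1 of 4 (Mecom higher, 10.4%). The other 5 genes were called between the fusion libraries in none of these 5 classes. Against Control, the Skida1-deleted library gave 4 higher (Mecom, Hlf, Hopx and Msi2) and 1 lower (Prdm16) of 7 in HSPC-like cells, where 9.56% and 19.1% of all genes were. Mecom, Hlf and Msi2 were higher and Prdm16 lower in granulocyte progenitor-like cells (3 and 1 of 4, against 9.42% and 24.9% of all genes) and in megakaryocyte-like cells (3 and 1 of 5, against 9.94% and 22%). It gave 0 of 2 in erythroid-like cells (7.06% and 18%) and 4 higher (Mecom, Hlf, Msi2 and Zfp521) and 0 lower of 4 in basophil-mast-like cells (9.48% and 23.1%).

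**Figure D2:**
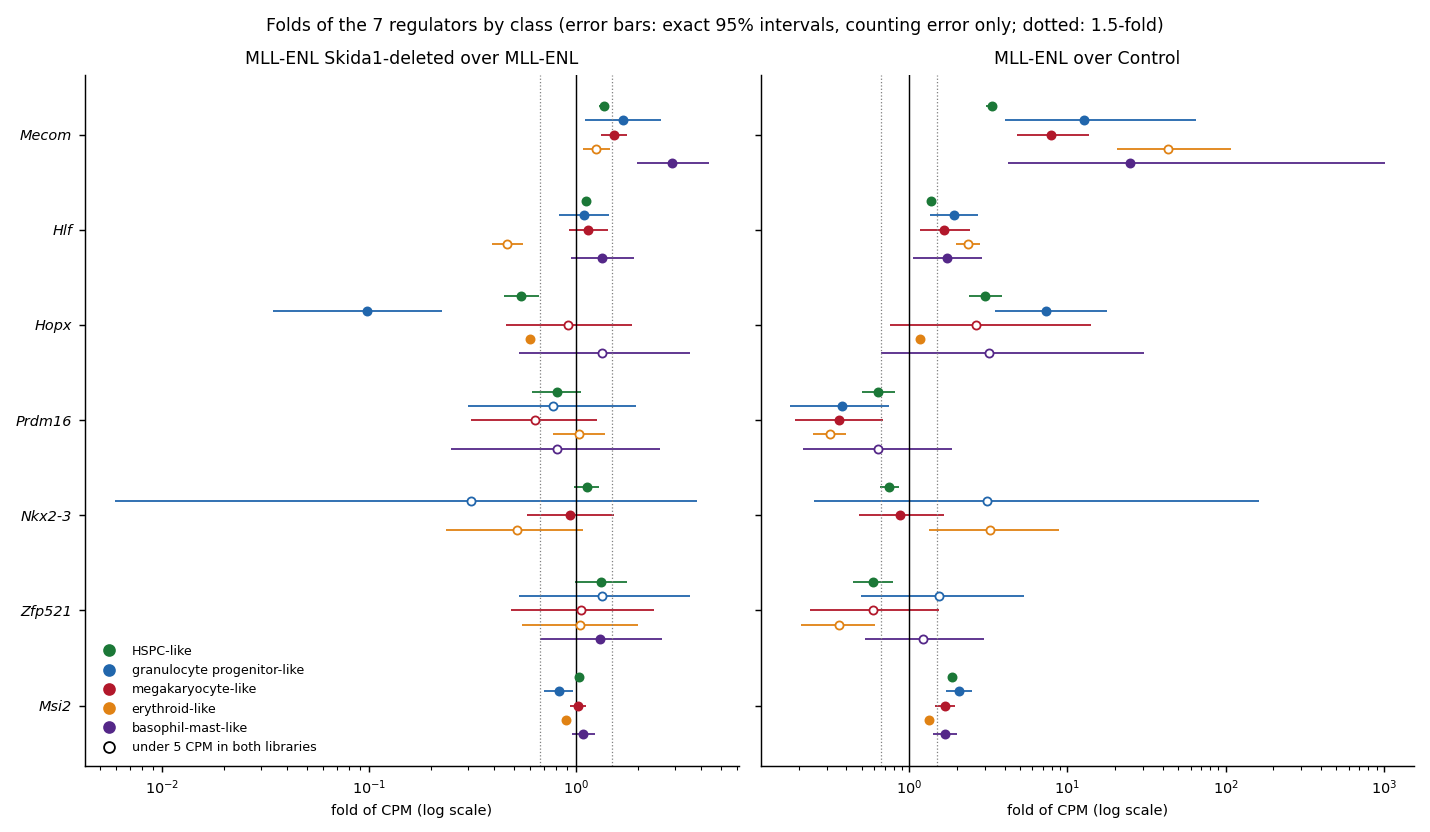
Ratios of CPM (log axis) of the 7 genes in 5 classes, with the Skida1-deleted library over MLL-ENL on the left and MLL-ENL over Control on the right, bars for exact 95% intervals of counting error, and open points where both libraries lie under 5 CPM. On the left most points sit near 1 while Mecom lies above it in megakaryocyte-like (1.52) and basophil-mast-like (2.91) cells and Hopx below it in HSPC-like cells (0.543); on the right Mecom lies above 3 in each class.

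Within the HSPC-like class most fusion cells fell into 3 clusters and most Control cells into 2 others, led by Adgrl4 and Ltb (766 Control cells) and by Adgrl4 and Gcnt2 (413 Control cells). The fusion cluster led by Meg3 and Hbb-bt, with the stem-cell surface gene Ly6a among its top genes, held 456 Skida1-deleted and 455 MLL-ENL cells and 4 Control cells. In it Mecom had 515 CPM in the Skida1-deleted and 400 CPM in the MLL-ENL library, Hlf 619 and 613 CPM, Hopx 35.0 and 53.6 CPM, Prdm16 21.7 and 23.1 CPM, and Nkx2-3 106 and 93.8 CPM. Each of these was above the level of either Control cluster, where in the order just given Mecom had 44.1 and 30.4 CPM, Hlf 199 and 158 CPM, Hopx 6.18 and 2.83 CPM, Prdm16 9.99 and 7.84 CPM, and Nkx2-3 28.9 and 21.7 CPM. The Ly6a level was higher in it as well, with 118 and 117 CPM against 63.5 and 37.2 CPM in the Control clusters. Each gene named here was thus higher in that cluster than in either Control cluster, and the makeup of the class and the level per cell cannot be told apart in the class ratios.

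The other 2 fusion clusters differed from Control gene by gene. In the cluster led by Adgrl4 and Ccl9 Mecom had 131 CPM in the Skida1-deleted and 80.5 CPM in the MLL-ENL library, and in the one led by Adgrl4 and Cd34 118 and 67.6 CPM, all above the Control clusters. Nkx2-3 had 11.7 and 5.84 CPM in the first and 9.60 and 4.45 CPM in the second, all below the Control clusters. Msi2 had 292 and 277 CPM in the first and 292 and 258 CPM in the second, against 176 and 154 CPM in Control. Hopx, at 5.08 and 7.50 CPM and at 2.99 and 5.19 CPM, lay within or near the Control range of 2.83 to 6.18 CPM. Mecom and Msi2 were therefore above Control in each of these 3 fusion clusters, while Nkx2-3 and Prdm16 were above it in the Meg3-led cluster and below it in the other 2, where Prdm16 had 2.03 to 2.94 CPM. The cluster led by Adgrl4 and Ltb is the 1 HSPC-like cluster with more than a few cells of both a fusion library and Control, at 50 MLL-ENL and 766 Control cells. In it Mecom had 37.7 CPM [23.3–57.6] (21 UMIs) in MLL-ENL and 44.1 CPM [40.2–48.3] in Control, so no difference in Mecom was detectable there. Hlf had 34.1 CPM [20.5–53.2] and 199 CPM [190–207] in the same cells, Nkx2-3 5.38 CPM (3 UMIs) and 28.9 CPM, and Msi2 248 CPM [208–292] and 176 CPM [168–184]. Hopx had 12.6 CPM [5.05–25.9] (7 UMIs) and 6.18 CPM [4.77–7.88], with intervals that overlap, and Prdm16 and Zfp521 had 0 UMIs in MLL-ENL. Among these cells Msi2 thus stood above Control with intervals apart, and Hlf and Nkx2-3 stood below it.

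Left out of the class, the Meg3-led cluster lowered MLL-ENL over Control to 1.97-fold for Mecom, 1.01-fold for Hlf, 1.46-fold for Hopx and 1.62-fold for Msi2. For Nkx2-3 MLL-ENL over Control was then 0.209 [0.165–0.263], past the threshold for a call, and for Prdm16 0.291. The Skida1-deleted library over MLL-ENL was then 1.69-fold for Mecom, 2.006-fold for Nkx2-3 and 0.610 for Hopx, and over Control 0.893 for Hopx. As the cluster held 4 Control cells, this takes Ly6a-high cells out of the fusion libraries and hardly any out of Control. When the larger Control cluster was left without a class by dropping the lymphoid markers, MLL-ENL over Control was 4.24-fold for Mecom, 1.61-fold for Hlf, 4.85-fold for Hopx and 2.003-fold for Msi2.

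**Figure D3:**
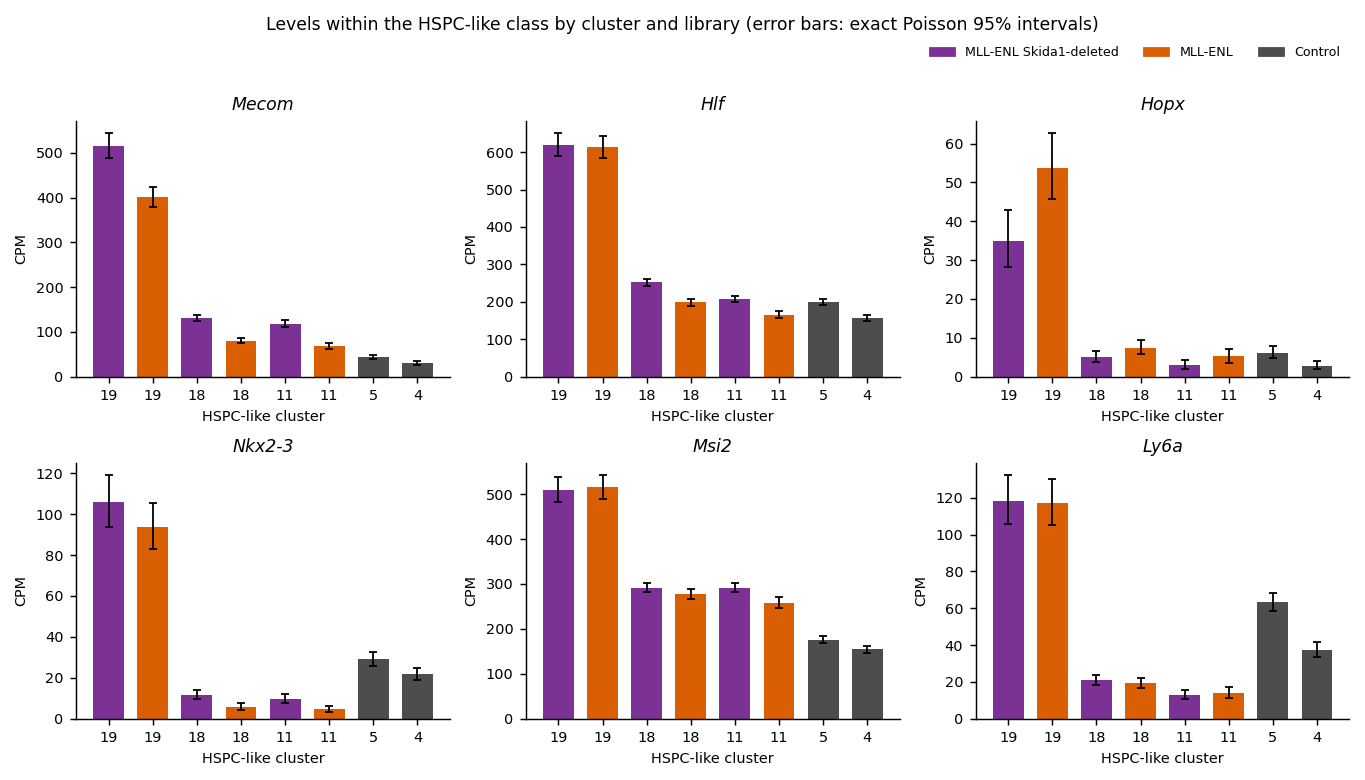
CPM of Mecom, Hlf, Hopx, Nkx2-3, Msi2 and Ly6a in the 5 HSPC-like clusters, with Skida1-deleted, MLL-ENL and Control libraries in the order of the legend, clusters ordered from the Meg3-led one to the Control ones, and bars for exact Poisson 95% intervals. The 50 MLL-ENL cells in the cluster led by Adgrl4 and Ltb are not drawn. Mecom, Hlf, Hopx and Nkx2-3 peak in the Meg3-led fusion cluster (Mecom 515 and 400 CPM), and Nkx2-3 falls below the Control clusters in the other fusion clusters.

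The antibody tags gave an order within the HSPC-like class that no RNA count set. Sca-1 (LY6A) and CD201 mark stem cells in mice, CD150 marks long-term stem cells, and CD48 marks cells that have left that state. Cells were ranked by a tag's share of all antibody tag counts of the cell, so a rank also depends on the other tags. In the quartile of HSPC-like cells with the highest Sca-1 share Mecom had 434, 381 and 145 CPM in the Skida1-deleted, MLL-ENL and Control libraries. The lowest quartile had 53.4, 25.5 and 4.02 CPM. Hlf had 533, 589 and 422 CPM in the highest quartile, against 131, 104 and 64.5 CPM in the lowest. Hopx had 27.4, 47.9 and 14.7 CPM, against 1.55, 2.11 and 1.08 CPM. These 3 genes were thus higher in the highest than in the lowest Sca-1 quartile in each library.

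Nkx2-3 had 78.9, 86.5 and 87.3 CPM in the highest Sca-1 quartile of the Skida1-deleted, MLL-ENL and Control libraries, and 0.775 (6 UMIs), 0.302 (2 UMIs) and 5.10 CPM (33 UMIs) in the lowest. In the lowest quartile Mecom was above Control in both fusion libraries and Nkx2-3 below it. The quartiles were cut within each library, and the median Sca-1 tag count in the lowest was 41, 44 and 105 in the Skida1-deleted, MLL-ENL and Control libraries (675, 798.5 and 894.5 in the highest), so the lowest quartiles were not alike in Sca-1. With CD48 the order turned round. Mecom had 74.6, 42.2 and 10.7 CPM in the quartile with the highest CD48 share, against 399, 379 and 141 CPM in the lowest. Both tags were read as shares of the same tag total, so a higher CD48 share lowers the Sca-1 share. The CD48 order is therefore not independent of the Sca-1 order. With CD150 Mecom had 274, 272 and 103 CPM in the highest quartile, against 121, 66.9 and 14.3 CPM in the lowest, and with CD201 367, 308 and 133 CPM, against 101, 72.7 and 9.39 CPM. Median CD150 counts in the Skida1-deleted, MLL-ENL and Control libraries were 19, 23 and 61 in the highest quartile and 4, 6 and 5 in the lowest. For CD201 they were 10, 14 and 33 against 1, 2 and 4, so these quartiles rest on few tag counts and differ between libraries.

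The same comparison was made without any cluster, in the decile of all kept cells with the highest Sca-1 share of tag counts in each library. These were 939, 1015 and 538 cells, of which 93.6%, 70.0% and 87.7% were HSPC-like. Mecom had 347, 250 and 84.8 CPM there in the Skida1-deleted, MLL-ENL and Control libraries, Hlf 444, 404 and 297 CPM, Hopx 22.8, 43.0 and 16.2 CPM, and Msi2 427, 398 and 212 CPM. Prdm16 had 11.2, 11.6 and 12.97 CPM, Nkx2-3 60.9, 50.3 and 52.9 CPM, and Zfp521 7.10, 5.53 and 8.55 CPM. MLL-ENL over Control was 2.95-fold for Mecom, 2.65-fold for Hopx, 1.88-fold for Msi2 and 1.36-fold for Hlf, close to the values in the class. Among cells chosen by the surface tag, Prdm16 and Nkx2-3 were not called in MLL-ENL over Control.

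To read spread into committed lineages within a library, each level was set against that library's own HSPC-like level. Mecom in megakaryocyte-like cells came to 47.3% of the HSPC-like CPM in the Skida1-deleted library, 42.3% in MLL-ENL and 17.9% in Control. It came to 16.0%, 7.49% and 0.994% in basophil-mast-like, 7.94%, 6.42% and 1.67% in granulocyte progenitor-like and 2.01%, 2.18% and 0.168% in erythroid-like cells. The counting intervals of both fusion libraries lay above that of Control in megakaryocyte-like and erythroid-like cells. Among granulocyte progenitor-like cells MLL-ENL, at 6.42% [4.51–8.88], overlapped Control, at 1.67% [0.344–4.90], and was 3.76% [2.26–5.88] against 1.79% [0.368–5.25] without the low-depth clusters described below. In basophil-mast-like cells MLL-ENL, at 7.49% [5.20–10.4], overlapped Control, at 0.994% [0.0251–5.56]. The Skida1-deleted library lay above the Control interval in each of the 4 classes.

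Hlf showed smaller differences of this kind, and Msi2 was in none of these classes higher in both fusion libraries than in Control. Hlf came to 11.01%, 10.66% and 8.80% in megakaryocyte-like, 8.40%, 8.58% and 6.18% in granulocyte progenitor-like and 7.54%, 6.25% and 4.99% in basophil-mast-like cells. The counting intervals of both fusion libraries overlapped that of Control in each of these classes. In erythroid-like cells Hlf came to 0.653%, 1.56% and 0.911%. Msi2 came to 49.1%, 49.7% and 54.7% in megakaryocyte-like, 18.1%, 20.9% and 29.3% in erythroid-like and 41.2%, 39.2% and 43.2% in basophil-mast-like cells, lower in both fusion libraries than in Control. Only in erythroid-like cells did the Msi2 intervals of both fusion libraries lie apart from that of Control. In granulocyte progenitor-like cells it came to 18.9%, 23.7% and 21.2%, with Control between the fusion libraries. Hopx in erythroid-like cells stood at 990%, 895% and 2298% of its HSPC-like level, so it was an erythroid gene in each library and cannot be read as spread.

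Free RNA in a droplet suspension can give UMIs in cells that do not express a gene, so Ly6a and Cd34 were read in the same way. Ly6a came to 2.07%, 2.58% and 2.86% of its HSPC-like level in granulocyte progenitor-like cells (3, 4 and 7 UMIs) and 2.23%, 1.16% and 2.32% in megakaryocyte-like cells (5, 2 and 3 UMIs) of the Skida1-deleted, MLL-ENL and Control libraries. No difference between the libraries was detectable in Ly6a at these counts. Cd34, which granulocyte progenitors express, came to 4.72%, 5.22% and 10.07% in megakaryocyte-like cells. In megakaryocyte-like cells Mecom thus stood above both gauges in the fusion libraries. In Control it stood above Ly6a, but at 17.9% [10.4–28.8] its interval overlapped that of Cd34, at 10.07% [7.97–12.6]. In basophil-mast-like cells Ly6a came to 2.54% (3 UMIs), 0 UMIs and 18.98% (26 UMIs) and Cd34 to 41.1%, 43.1% and 34.4%, and Mecom exceeded Ly6a there in the fusion libraries and not in Control.

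In erythroid-like cells the gauges differed between libraries. Ly6a came to 0.512%, 1.60% and 0.176% and Cd34 to 0.928%, 2.27% and 1.27% in the Skida1-deleted, MLL-ENL and Control libraries. The granule genes Mpo, Elane, Prtn3 and Ctsg, which belong to granulocytes, had 9.81, 1.59, 12.3 and 2.96 CPM in erythroid-like cells of the Skida1-deleted library, 32.9, 8.76, 32.5 and 15.7 CPM in MLL-ENL, and 5.25, 0.994, 11.04 and 3.19 CPM in Control. RNA of other lineages was thus highest in the MLL-ENL erythroid-like cells.

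Much of this signal sat in 1 cluster of low depth, led by Rpgrip1, Ulk4 and Hba-a1, with 72 Skida1-deleted, 2495 MLL-ENL and 9 Control cells and a median of 4065.5 UMIs. In the 2598 low-depth erythroid-like MLL-ENL cells Mecom had 17.2 CPM, Hlf 24.1 CPM and Mpo 260 CPM, and Ly6a and Cd34 reached 12.2% and 14.7% of their HSPC-like levels. Without the low-depth clusters Mecom in erythroid-like cells had 3.18 CPM (360 UMIs) in the Skida1-deleted library, 1.05 CPM (107 UMIs) in MLL-ENL and 0.0628 CPM (7 UMIs) in Control. MLL-ENL over Control was then 16.7-fold [7.81–42.4] and the Skida1-deleted library over MLL-ENL 3.04-fold [2.45–3.81]. Mpo differed less between the libraries in the same cells, at 6.74, 6.83 and 5.17 CPM. The part of free RNA in these ratios was not tested beyond these values.

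Set against the HSPC-like level, Mecom in these deeper erythroid-like cells was 1.89%, 0.843% and 0.168% in the Skida1-deleted, MLL-ENL and Control libraries. Ly6a was 0.336%, 0.380% and 0.176%, and Cd34 0.809%, 0.847% and 1.26%. In the Skida1-deleted library Mecom thus stood above both gauges, and in MLL-ENL it stood at the level of Cd34. Hlf came to 1.467, 1.495 and 1.632 CPM without the low-depth clusters, and its ratios of 0.466 for the Skida1-deleted library over MLL-ENL and 2.35 for MLL-ENL over Control became 0.981 [0.783–1.23] and 0.916 [0.734–1.14].

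The low-depth clusters of the granulocyte progenitor-like class held 19 Skida1-deleted, 125 MLL-ENL and 16 Control cells. Without them Mecom had 14.1, 4.66 and 0.669 CPM, so that MLL-ENL over Control was 6.97-fold [2.05–36.8] and the Skida1-deleted library over MLL-ENL 3.03-fold [1.80–5.35]. Hlf had 24.1, 20.6 and 11.6 CPM and Msi2 62.3, 67.0 and 37.0 CPM, close to the values of the whole class.

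**Figure D4:**
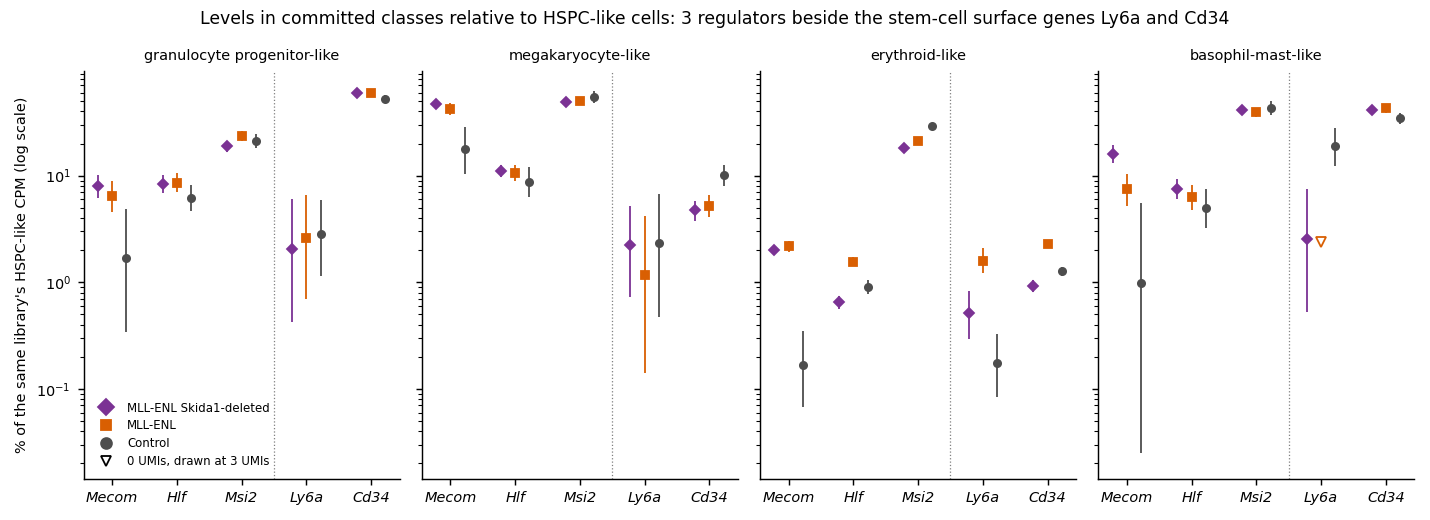
Level of Mecom, Hlf and Msi2, beside Ly6a and Cd34 as gauges of free RNA, in 4 committed classes as a percent of the same library's HSPC-like CPM (log axis), with Skida1-deleted, MLL-ENL and Control libraries in the order of the legend. Mecom in megakaryocyte-like cells stands at 47.3% and 42.3% in the fusion libraries and 17.9% in Control, while Ly6a lies between 1.16% and 2.32% there; a gene with 0 UMIs is drawn at the level of 3 UMIs.

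Within each committed class cells were split into terciles by the share of UMIs in that lineage's own markers, with edges set over the 3 libraries together. Cells of the low-depth clusters were kept in the terciles. In granulocyte progenitor-like cells Mecom had 23.8, 13.1 and 4.31 CPM in the lowest, middle and highest tercile of the Skida1-deleted library, 11.4, 7.08 and 2.93 CPM in MLL-ENL, and 0, 0 and 3 UMIs in Control. Basophil-mast-like cells gave 39.3, 21.9 and 6.82 CPM in the Skida1-deleted library, 13.5, 8.85 and 4.33 CPM in MLL-ENL, and 0, 1 and 0 UMIs in Control. Mecom thus declined with own-lineage markers in these 2 classes and was still found in the tercile with the most of them. Only 8 Control granulocyte progenitor-like cells fell in the lowest tercile.

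Megakaryocyte-like cells differed. Mecom had 81.4, 94.8 and 65.7 CPM from the lowest to the highest tercile in the Skida1-deleted library, 52.5, 65.6 and 44.1 CPM in MLL-ENL, and 2.94, 4.07 and 9.85 CPM in Control. In this lineage the fusion libraries held Mecom at all stages, and the highest tercile of Control held the most Control Mecom, which left MLL-ENL 4.48-fold above Control there. Hlf had 29.7, 26.9 and 33.2 CPM in the Skida1-deleted library, 24.1, 22.5 and 29.9 CPM in MLL-ENL, and 2.94, 12.2 and 22.2 CPM in Control, again with the most Control RNA in the highest tercile. The lowest Control tercile had 20 cells.

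In erythroid-like cells Mecom and Hlf declined and Hopx increased with own-lineage markers. Mecom had 7.21, 2.61 and 1.62 CPM in the Skida1-deleted library, 5.002, 2.31 and 1.21 CPM in MLL-ENL, and 0.126, 0 and 0.068 CPM in Control. Hlf had 3.29, 1.59 and 0.982 CPM in the Skida1-deleted library, 6.58, 3.85 and 1.47 CPM in MLL-ENL, and 3.53, 1.26 and 0.567 CPM in Control. Both declined in each fusion library, and Hlf in Control as well, where Mecom had 4, 0 and 3 UMIs. The MLL-ENL terciles include the 2598 low-depth cells, which held 202 of the 309 Mecom UMIs and 284 of the 437 Hlf UMIs. Their levels are therefore not those of the deeper erythroid-like cells, in which Hlf had 1.495 CPM in MLL-ENL and 1.632 CPM in Control. Hopx had 46.7, 76.9 and 91.6 CPM in the Skida1-deleted library, 103, 128 and 140 CPM in MLL-ENL, and 81.4, 116 and 116 CPM in Control. The Skida1-deleted library thus held less Hopx than MLL-ENL and Control at each stage. Msi2 declined in each library, with 65.1, 57.3 and 52.0 CPM in the Skida1-deleted library, 74.1, 66.4 and 53.2 CPM in MLL-ENL, and 59.1, 45.6 and 43.2 CPM in Control.

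**Figure D5:**
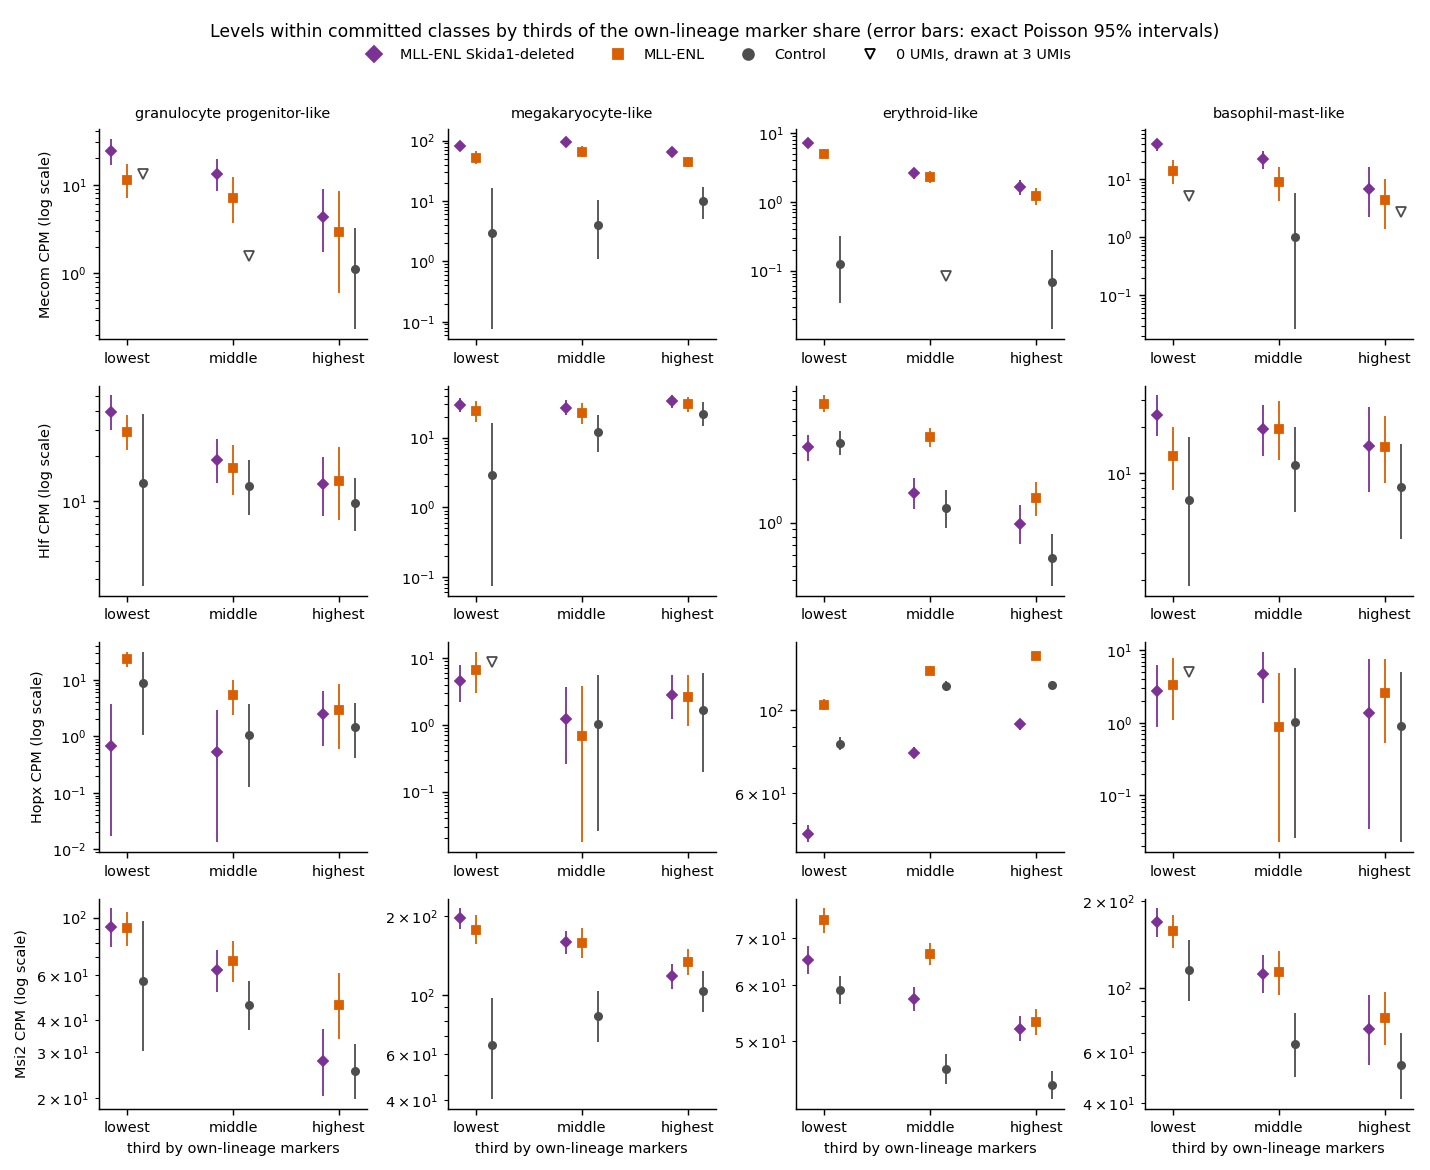
CPM (log axis) of Mecom, Hlf, Hopx and Msi2 in 4 committed classes, by tercile of cells from the lowest to the highest share of UMIs in the class's own markers, 1 point per library and tercile and bars for exact Poisson 95% intervals. Mecom declines across terciles in granulocyte progenitor-like cells (23.8 to 4.31 CPM in the Skida1-deleted library) but stays high in megakaryocyte-like cells (81.4 to 65.7 CPM), while Hopx climbs in erythroid-like cells; 0 UMIs are drawn at the CPM of 3 UMIs.

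Cells were also counted by how many of the 7 genes they held after thinning to 3000 UMIs. At least 2 of them were found in 52.5% of HSPC-like cells in the Skida1-deleted library, 49.2% in MLL-ENL and 30.2% in Control. In megakaryocyte-like cells the shares were 14.0%, 12.7% and 3.94%, in granulocyte progenitor-like cells 4.57%, 5.02% and 0.543%, and in basophil-mast-like cells 6.27%, 3.15% and 1.82%. The Control shares rest on 127, 184 and 165 thinned cells in these classes, so few cells make them up. Erythroid-like cells gave 2.96%, 6.43% and 3.33%, where MLL-ENL alone stood above Control and the low-depth cluster lies. The count takes in Hopx, highest in this class, and Msi2, found in 16.5%, 18.7% and 11.8% of its thinned cells.

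Mecom and Hlf were found in the same thinned HSPC-like cell in 27.5% of Skida1-deleted, 24.2% of MLL-ENL and 8.90% of Control cells. Were the genes independent of each other, 21.4%, 16.6% and 4.79% would hold both, so the 2 genes shared cells more than their shares alone give in each library. In megakaryocyte-like cells 2.02%, 1.66% and 0% held both, against 1.84%, 1.35% and 0.112% if independent.

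Over the 15 points of 5 classes and 3 libraries, the pattern of log2(CPM + 1) was compared between genes as a description; points of a library share its depth and preparation. Mecom correlated with Msi2 (Pearson r 0.912) and Hlf (0.843), and Hlf with Msi2 (0.846) and Nkx2-3 (0.842). Hopx did not follow them, with r of -0.232 to Mecom and -0.392 to Hlf, nor did Prdm16 follow Mecom (0.205). Among 5849 genes with at least 30 CPM in 1 point, the patterns most like Mecom were those of Mfsd4a (0.954), Otub1 (0.948) and Abl2 (0.945). Those most like Hlf were Xaf1 (0.981), Ifi27l2a (0.962) and Calcrl (0.958), and those most like Hopx were Zfp800 (0.952), Slc25a21 (0.950) and Pklr (0.947), the last the red-cell pyruvate kinase.

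Related genes of HSPC-like cells were read from lists drawn up with earlier results of these data known. Of 24 other stem and progenitor transcription factors, 23 were measured, 3 higher and 4 lower in MLL-ENL over Control (against 7.99% and 15.7% of all genes), with a median log2 ratio of -0.06 against -0.10 for all genes. Hmga2, a chromatin protein of fetal stem cells, had 569, 565 and 268 CPM in the Skida1-deleted, MLL-ENL and Control libraries (2.11-fold [2.04–2.18] in MLL-ENL over Control). Lyl1, a bHLH factor of stem cells, was lower with 46.2, 46.9 and 98.9 CPM, and the repressors Gfi1b and Gfi1 with 6.46, 6.86 and 13.9 CPM and with 11.2, 14.5 and 27.6 CPM. None of the 23 was called between the fusion libraries in HSPC-like cells.

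Among RNA-binding partners and relatives of Msi2, 6 of 7 were measured and 3 were higher and 0 lower in MLL-ENL over Control (7.99% and 15.7% of all genes), with a median log2 ratio of 0.41 against -0.10 for all genes. Lin28b, which blocks let-7 microRNAs in fetal blood cells, had 82.2, 55.6 and 20.6 CPM (2.70-fold [2.41–3.04] in MLL-ENL over Control), and Igf2bp2, an mRNA-binding protein, 76.6, 78.1 and 38.8 CPM. Igf2bp1 had 4.83, 5.62 and 3.27 CPM, and Syncrip, a partner of MSI2, 182, 190 and 264 CPM, a ratio of 0.721 and no call. For the Skida1-deleted library over MLL-ENL none of the 6 was called, and Lin28b came closest at 1.48-fold.

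Relatives of the other genes were read in the same way. Of 9 PRDM family genes besides Mecom and Prdm16, 6 were measured and 0 called, with a median of 0.02 against -0.10 for all genes. Of the PAR bZIP factors Dbp and Tef and their antagonist Nfil3, all 3 measured, Dbp was lower with 2.99, 4.02 and 9.05 CPM, and Tef (11.9, 12.6 and 11.1 CPM) and Nfil3 (3.38, 5.06 and 6.94 CPM) were not called in MLL-ENL over Control; the list's median was -0.39. In basophil-mast-like cells 2 of these 3 were lower, with a median of -1.004 against -0.15 for all genes. Of 6 MECOM corepressors, all measured, the histone methyltransferase gene Ehmt1 was lower with 55.2, 47.6 and 86.9 CPM and the list's median was -0.30. Of 4 relatives and target factors of Zfp521, 1 was measured in HSPC-like cells and it was not called.

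Of 12 stem-cell surface genes 11 were measured, and 0 were higher and 5 lower in MLL-ENL over Control (against 7.99% and 15.7% of all genes), with a median log2 ratio of -0.44 against -0.10 for all genes. Esam, an adhesion molecule, had 2.27, 3.46 and 15.5 CPM in the Skida1-deleted, MLL-ENL and Control libraries, Fgd5 5.64, 5.78 and 16.3 CPM, Slamf1, the gene of CD150, 3.25, 2.79 and 6.14 CPM, and Pdzk1ip1 9.15, 11.6 and 19.6 CPM. HSPC-like cells of the fusion libraries thus held more Mecom and Msi2 RNA beside less RNA of these surface genes as class sums. All of the 12 but Kit and Slamf1 also served as markers of the class. In the Meg3-led fusion cluster, where Mecom was highest, Ly6a lay above both Control clusters (118 and 117 against 63.5 and 37.2 CPM).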

How the data were processed

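The deposited files hold raw UMI counts per gene and per antibody tag for each cell barcode, without normalization. The version of Cell Ranger is 6.1.2 per the file headers and 6.0.1 per the submitters' processing notes, which give mm10 as the build. The matrices listed 10543 Skida1-deleted, 11910 MLL-ENL and 6091 Control barcodes. A cell needed 1000 UMIs or more, 500 genes or more and a mitochondrial share of UMIs under 10%. Scrublet in scanpy 1.11.5 (Python 3.11.15, scipy 1.17.1, numpy 2.4.6) marked 568 doublets in the Skida1-deleted and 398 in the Control library, which were removed. It marked 0 in MLL-ENL, where the 994 highest scores were removed instead, at 0.8% per 1000 cells.

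The libraries were clustered together without integration (30 principal components of 2000 variable genes, 15 neighbours, Leiden with igraph 0.11.9 at resolution 1.0), the 7 genes left out. Each cluster was named by the marker list best represented in its top 50 genes, by fold within a library, a choice made after a first naming was seen, as was the joining of the stem and lymphoid progenitor lists. UMIs were summed per library and class. Depth per class sets the intervals printed, which cover counting error only. With 1 library per group no test was possible. The code for folds and intervals was run on simulated Poisson counts, with changes larger than the call threshold planted in genes with many UMIs. Those counts held counting error only, so this checked the code and not the calls made here.

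All 7 genes were named in each class. For likeness the 3 genes with the highest Pearson r to Mecom, Hlf and Hopx were named, and from each related list up to 4 measured genes with the largest absolute log2 ratio in HSPC-like MLL-ENL over Control. The genes and lists were chosen with earlier results of these data known. The alternatives were other scaling, cell filters, doublet handling, clustering and class rules, and thinning.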

Additional observations from a re-analysis of the deposited data

How the results depend on the processing

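Of the 152 counts of genes called under another setting, 118 stayed within 1.5 times the value reported and 34 did not. Of 1555 values of single genes, 1281 stayed within the counting interval, 266 moved and 8 reversed. Only a reported call could count as reversed, so other ratios that changed direction stand among those that moved or stayed. Hlf in erythroid-like MLL-ENL over Control, without a call, thus went from 2.35 to 0.916 without the low-depth clusters. A further 33 had no value, since the second library held no UMI. The cause was not tested. The count of genes higher in MLL-ENL over Control lay between 2 and 4 in HSPC-like cells (3). In granulocyte progenitor-like cells (4) it was 2 at resolution 0.5, 2 with cells classed by their nearest Control cells and 1 in the highest tercile by own-lineage markers. In megakaryocyte-like cells (3) it was 1 at resolution 0.5 and 1 in the highest tercile, in basophil-mast-like cells (3) 1 by nearest Control cells, and in erythroid-like cells (0) 1 with scaling without hemoglobin, mitochondrial and ribosomal protein genes, 3 with no CPM minimum and 3 after thinning. For the Skida1-deleted library over MLL-ENL the count in HSPC-like cells (1) was 2 under the strict cell filter, 2 after thinning and 4 without the Meg3-led cluster. In basophil-mast-like cells (1) it was 2 with no CPM minimum, without doublet removal, at resolution 0.5 and in the highest tercile, and 3 by marker score. In erythroid-like cells (1) it was 2 with the other scaling, without doublet removal and by nearest Control cells, and 3 with no CPM minimum and after thinning. In granulocyte progenitor-like cells (2) it was 1 with the 7 genes used to cluster, with cycle, fusion target and stem genes left out of clustering, and in the highest tercile. In megakaryocyte-like cells (1) it was 2 with the other scaling, with no CPM minimum, without doublet removal, without cycle genes, by marker score and after thinning, 3 at resolution 0.5, and 0 by nearest Control cells and in the highest tercile. Reported calls of single genes reversed as follows. Hlf in megakaryocyte-like MLL-ENL over Control was 0.802 at resolution 0.5. Hopx in the HSPC-like Skida1-deleted library over Control was 0.918 without cycle, fusion target and stem genes and 0.893 without the Meg3-led cluster. Mecom in the granulocyte progenitor-like Skida1-deleted library over MLL-ENL was 0.872 at resolution 2.0 and 0.756 thinned, and Prdm16 in HSPC-like MLL-ENL over Control 1.04 thinned. Zfp521 in the basophil-mast-like Skida1-deleted library over Control was 0.890 by marker score and 0 in the highest tercile, where it had 0 UMIs. Over all settings Mecom in HSPC-like MLL-ENL over Control lay between 1.97 and 4.39 and Msi2 between 1.60 and 2.12. The settings without low-depth clusters, without the Meg3-led cluster and without the lymphoid markers were chosen after seeing the data. Counting unnamed low-depth cells as erythroid-like was not run, since no unnamed cluster was of low depth, and the split into terciles has no value for HSPC-like cells. Leaving out a replicate was not possible with 1 library per group. No paired analysis was possible because each group has 1 library and the labels give no replicate numbers. Counting error is wide for Mecom in the committed Control classes, at 1 to 17 UMIs, and for Nkx2-3 there, at 1 to 18 UMIs. In granulocyte progenitor-like and erythroid-like cells the Control class held about as many UMIs in all as MLL-ENL. The Control Mecom counts in these 2 classes are thus low at a like depth.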
